A study of Mus musculus with 12 samples.

Results

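Transcripts of 10 genes, *Mybpc1*, *Clic6*, *Chil3*, *Alpl*, *Cdca7l*, *Ism1*, *Lynx1*, *Hunk*, *Alpk1* and *Fbln1*, were far more abundant in βCat-GOF adrenals than in controls. They are 10 of the 39017 genes in the deposited counts. They were chosen by name because of this rise, so their difference between the groups is given as a description without a test. The study sequenced RNA of whole adrenals from 12 female mice, 6 per genotype, on a mixed sv129-C57Bl/6 background at 10 to 11 weeks of age. Controls (Ctrl) are ASCre/+ and βCat-GOF mice are bigenic ASCre/+ ::Ctnnb1fl(ex3)/+. By these genotype labels all 12 carry Cre, although the control titles read Wt_Ctr and the paper calls the controls wild type. In βCat-GOF mice Cre deletes exon 3 from 1 allele of *Ctnnb1*, which leaves a β-catenin protein that escapes degradation. The *Cyp11b2* (AS) locus drives Cre in zona glomerulosa (zG) cells, whereas the RNA also holds the zona fasciculata (zF), medulla, capsule and vessels. More cells of a type and more RNA per cell cannot be told apart in such RNA.

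Libraries held from 14090378 to 25625494 counted reads in Ctrl and from 13484675 to 24951480 in βCat-GOF mice. Values are normalized counts, the counts divided by DESeq2's size factor of each library, and the base mean is their mean over all mice. Genes were called with edgeR's quasi-likelihood test at the cut-offs of the study (adjusted p under 0.05, base mean above 100, more than a 1.4-fold difference). A tested gene with a lower base mean could thus not be called, whatever its p-value. Of the 14953 genes tested 1.48% were called higher and 0.869% lower. Every Ctrl label starts with the same number, and the βCat-GOF labels start with another except for βCat-GOF 5, so a family or batch tied to that number and the genotype cannot be told apart. βCat-GOF 5 lay above every control in all 10 genes, as did every other βCat-GOF mouse. The genes were picked for this difference, so nothing about the label number is read from it. The labels of Ctrl 1 and 2, of Ctrl 3 and 4 and of βCat-GOF 1 and 2 share a stem and differ by a suffix, and the labels do not say whether both libraries of such a pair come from separate mice. They are counted as separate mice here, and p-values over 6 mice would be too small if they do not.

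Canonical Wnt signaling works by keeping β-catenin from being degraded, so that it enters the nucleus and acts with TCF and LEF factors on target genes. *Nkd1*, a target that feeds back on the pathway, serves as a readout of that activity. In the adrenal cortex β-catenin is active in the zG, and the zF below it makes glucocorticoids under the control of ACTH. *Akr1b7*, an aldo-keto reductase that removes a by-product of steroid synthesis, marks the zF of the mouse. *Chil3*, *Ism1* and *Fbln1* encode secreted or matrix proteins, *Alpl* and *Lynx1* encode proteins tethered to the outer cell surface, and *Clic6* belongs to the chloride intracellular channel family. *Hunk* and *Alpk1* encode kinases, *Cdca7l* a nuclear protein, and *Mybpc1* a protein of the muscle sarcomere.

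The DNA before the transcription start of these genes was read because they moved in the same direction. RefSeq windows from 250 bases before to 50 after a start (GRCm38.p6) were found for 7 of the 10 genes, 9 windows in all, and not for *Clic6*, *Ism1* and *Lynx1*. Stretches of 100 bases directly before 4 of these starts are shown because they range from CpG-poor to CpG-rich, with each CpG in capitals, 5′ to 3′ on the strand of the gene. They are those of *Mybpc1* (chr10:88605153-88605252, minus strand), *Chil3* (chr3:106167565-106167664, minus), and both starts of *Alpl*, the upstream one (chr4:137796385-137796484, minus) and the downstream one (chr4:137766476-137766575, minus).
Mybpc1: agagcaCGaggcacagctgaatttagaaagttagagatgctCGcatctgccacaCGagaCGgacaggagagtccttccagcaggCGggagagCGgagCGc
Chil3: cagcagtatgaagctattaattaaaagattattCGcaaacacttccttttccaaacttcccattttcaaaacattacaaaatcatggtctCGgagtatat
Alpl, upstream start: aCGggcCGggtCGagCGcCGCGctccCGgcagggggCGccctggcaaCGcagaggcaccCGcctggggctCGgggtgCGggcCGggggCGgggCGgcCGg
Alpl, downstream start: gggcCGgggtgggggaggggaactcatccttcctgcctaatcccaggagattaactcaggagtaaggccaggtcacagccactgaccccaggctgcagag
The whole window of *Mybpc1* held 11 CpGs, that of *Chil3* 3, and those of *Alpl* 26 and 4. The median over the 13993 windows of genes tested was 20. *Cdca7l* and *Hunk* had 46 and 41 CpGs, so the members have no shared CpG content. The TCF/LEF words searched on both strands were CTTTGAA with its variants CTTTGAT and CTTTGTA together with CTTTGTT. They were in 0 of the 9 windows, against 16.9% of all 32851 windows and 11.5% of those of genes tested. AAGGTCA, the core word of the adrenal nuclear receptor SF-1, was likewise in 0 of the 9, against 4.72% of all windows and 3.33% of those of genes tested. These letters are not in these windows, which says nothing of sites farther away. At such shares a count of 0 in 9 windows, of which those of *Fbln1* overlap, is not read as a lack.

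All 10 genes passed edgeR's filter on low counts. Of these, 9 passed it on the control libraries alone, while *Clic6* reached the filter's level in 3 of the 6 controls and passed through the βCat-GOF mice. In all 10 every βCat-GOF mouse lay above every Ctrl mouse, against 1.82% of the 11431 genes with a base mean above 100, but the genes were picked for this difference and nothing is read from the count. The folds of the group means ran from 2.34 (*Lynx1*) to 39.5 (*Mybpc1*).

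**Figure D1:**
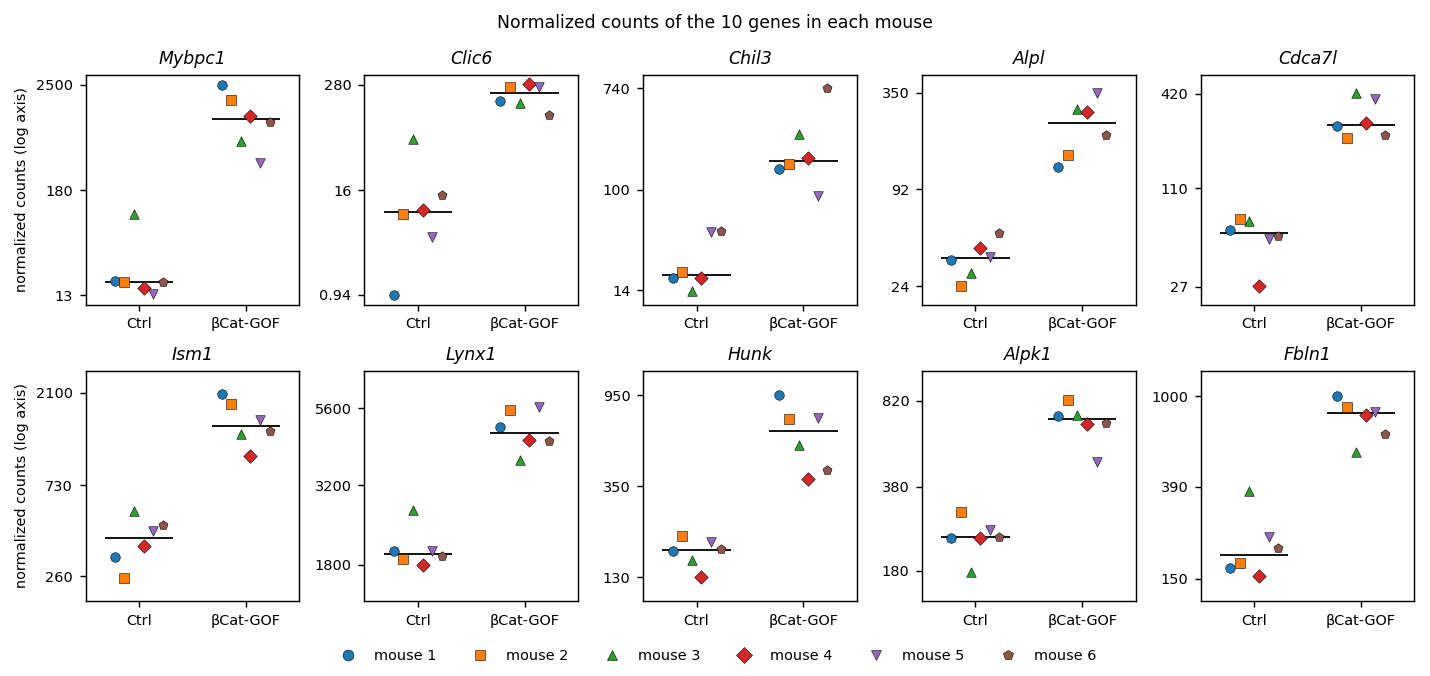
Normalized counts (log axis) of each gene in the 6 Ctrl and 6 βCat-GOF mice, 1 symbol per mouse, with the median of each group as a line. The groups do not overlap in any panel, and Ctrl 3 (triangle) stands above the other controls for *Mybpc1*, *Clic6*, *Ism1*, *Lynx1* and *Fbln1*; mouse numbers are not paired between the groups.

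Among the secreted proteins, *Chil3* encodes Ym1, a chitinase-like lectin made by alternatively activated macrophages and by immature neutrophils. The gene (ENSMUSG00000040809) occupies chromosome 3 of GRCm38, the build also called mm10, from 106147554 to 106167564. Its normalized counts were 13.7 at the lowest, 18.9 at the median and 44.7 at the highest in Ctrl mice, and 88.7, 177 and 742 in βCat-GOF mice. The group means were 26.3 ± 14.1 and 273 ± 240 (SD, n = 6 mice each), and the log2 fold change was 3.37 (standard error 0.51). βCat-GOF 6 supplied the highest value, and the other 5 βCat-GOF mice reached at most 299. Without it the log2 fold change was 2.77 (standard error 0.37), and the base mean fell from 149 to 97.0, under the cut-off of 100. The longest *Chil3* transcript matched *Chil4* at 94.3% identity over its whole length, so reads that map to both would not have been counted, and no mouse had more than 3 counts of *Chil4*.

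Markers of the cells known for Ym1 were not called higher. Among the 8 macrophage markers the summed level ran from 385 to 732 CPM (counts scaled to library size) in Ctrl and from 298 to 497 CPM in βCat-GOF mice, 7 of the 8 had a log2 fold change below 0, and 1 was called, *Adgre1*, which encodes F4/80 and fell from 359 ± 76.9 to 210 ± 60.0 normalized counts (log2 fold change -0.78, edgeR's quasi-likelihood test, adjusted p = 0.046). Of the 5 markers of alternative activation 3 were tested and 0 called, the largest difference being that of *Retnla*, a resistin-like secreted protein (log2 fold change -1.44, adjusted p = 0.16 from edgeR). The 7 neutrophil markers summed to between 0.497 and 1.37 CPM in Ctrl and between 0.438 and 2.06 CPM in βCat-GOF mice, with *Ly6g* and *Elane* at no more than 3 counts in any mouse and *S100a9* tested without a call (log2 fold change 0.80, adjusted p = 0.29 from edgeR). No other neutrophil marker was tested, and the base mean of *S100a9* was 11.8. A call was therefore not possible for any neutrophil marker. Among the relatives of *Chil3*, *Chil6* had 8.03 ± 5.35 normalized counts in Ctrl and 67.9 ± 102 in βCat-GOF adrenals, with single βCat-GOF mice between 0 and 263. That difference did not pass (log2 fold change 3.05, standard error 0.99, adjusted p = 0.11 from edgeR), and *Chil1* was at 22.7 ± 9.76 and 24.0 ± 3.05.

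*Ism1* encodes isthmin 1, a secreted protein with a thrombospondin repeat. Its locus (ENSMUSG00000074766) is on chromosome 2 from 139678178 to 139758581. The lowest, median and highest normalized counts were 255, 400 and 543 in Ctrl mice and 1019, 1442 and 2065 in βCat-GOF mice. βCat-GOF 1 and 2 were the highest and βCat-GOF 4 the lowest of their group. The means of 398 ± 104 and 1522 ± 382 (SD, n = 6 each) differ by 1.93 on the log2 scale (standard error 0.20). *Hspa5*, *Itgav* and *Itgb5*, which encode cell surface partners described for isthmin 1, were not called (log2 fold changes 0.19, 0.12 and -0.20). Its relative *Ism2* was too low to be tested.

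*Fbln1* encodes fibulin 1, a calcium-binding glycoprotein of basement membranes and elastic fibres, and (ENSMUSG00000006369) lies on chromosome 15 from 85205949 to 85286535. Controls had 154 normalized counts at the lowest, 192 at the median and 373 at the highest, and βCat-GOF mice 558, 835 and 999. The highest control, Ctrl 3, was well apart from the other 5, which lay between 154 and 231. The means were 218 ± 80.9 and 799 ± 159 (SD, n = 6 each), which is 1.86 on the log2 scale (standard error 0.21). None of its 6 relatives (fibulins 2, 5 and 7, *Efemp1*, *Efemp2* and *Hmcn1*) was called, with log2 fold changes between -0.62 for *Fbln2* and 0.27 for *Efemp1*. Of 5 matrix genes whose products bind or cut fibulin 1 or lie beside it, 0 were called, *Adamts1*, a matrix protease, having the largest difference (log2 fold change 0.69, adjusted p = 0.091 from edgeR). The 7 markers of capsule and stroma, where fibulins are made, summed to between 391 and 778 CPM in Ctrl and between 310 and 656 CPM in βCat-GOF mice, with 0 called.

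At the cell surface, *Alpl* encodes the tissue-nonspecific alkaline phosphatase, a membrane-anchored enzyme that splits pyrophosphate and pyridoxal phosphate outside the cell. On chromosome 4 the gene (ENSMUSG00000028766) runs from 137741733 to 137796384. Normalized counts were 24.2, 35.3 and 50.3 (lowest, median, highest) in Ctrl and 125, 231 and 347 in βCat-GOF mice. βCat-GOF 1 and 2 were here the lowest of their group and βCat-GOF 5 the highest. The means of 35.8 ± 9.16 and 227 ± 85.7 (SD, n = 6 each) gave a log2 fold change of 2.66 (standard error 0.27). Its relatives *Alppl2*, *Alpi* and *Akp3* did not exceed 3 counts in any mouse. *Enpp1*, *Ank*, *Phospho1*, *Nt5e* and *Entpd1*, which make, export or split pyrophosphate, phosphate esters or nucleotides, had log2 fold changes between -0.28 and 0.00 and 0 of the 5 were called. The kidney, which lies next to the adrenal and is rich in this enzyme, was barely seen in the libraries, with 8 kidney markers summing to between 0.209 and 1.00 CPM in Ctrl and between 0.195 and 1.26 CPM in βCat-GOF mice, and *Umod*, *Aqp2* and *Kap* at no more than 3 counts.

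*Lynx1* encodes a small protein of the Ly6 family, held to the membrane by a lipid anchor, that binds nicotinic acetylcholine receptors and lowers their sensitivity. The gene (ENSMUSG00000022594) is on chromosome 15 from 74747852 to 74753046. The normalized counts were 1798, 1951 and 2677 in Ctrl and 3832, 4659 and 5639 in βCat-GOF mice (lowest, median, highest). Ctrl 3 was again the highest control, the other 5 lying between 1798 and 1990. The log2 fold change of 1.22 (standard error 0.12) was the smallest of the 10, from 2041 ± 320 to 4784 ± 700 (SD, n = 6 each). Of the 6 receptor subunits listed 5 were tested and 0 called, 4 of them with log2 fold changes below 0, from -0.57 for *Chrnb2* to -1.01 for *Chrnb4* (adjusted p from edgeR 0.14 and 0.21). The 8 markers of the adrenal medulla, where chromaffin cells carry these receptors, had a median log2 fold change of -0.35 with 0 called.

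*Clic6* encodes a chloride intracellular channel protein, one of a family that exists in soluble and membrane forms, and (ENSMUSG00000022949) lies on chromosome 16 from 92485736 to 92541243. In the control libraries it was near the detection limit, with between 1 and 84 counts, against 106 to 270 in βCat-GOF libraries. Normalized counts were 0.937, 8.89 and 64.0 in Ctrl and 122, 221 and 283 in βCat-GOF mice (lowest, median, highest). Ctrl 3 had the 64.0, and the other controls were at 14.0 or below. The means were 16.9 ± 23.5 and 213 ± 65.9 (SD, n = 6 each) and the log2 fold change was 3.59 (standard error 0.61). Without Ctrl 3 it was 4.88 (standard error 0.42), a fold 2.44 times larger. Of the 4 other family members listed, *Clic3* was too low to be tested, at 2.34 ± 2.19 and 1.35 ± 1.51 normalized counts. The other 3 were more abundant than *Clic6* and did not pass the test, *Clic1* at 1937 ± 156 and 1986 ± 316, *Clic4* at 2475 ± 153 and 2336 ± 264, and *Clic5* at 501 ± 63.6 and 484 ± 31.5 normalized counts.

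Among the kinases, *Hunk* encodes a protein kinase of the SNF1 and AMPK family first described in the mammary gland. Its locus (ENSMUSG00000053414) is on chromosome 16 from 90386013 to 90499553. Normalized counts were 130, 175 and 204 in Ctrl and 381, 643 and 952 in βCat-GOF mice, with βCat-GOF 1 the highest and βCat-GOF 4 and 6 the lowest. The means were 172 ± 26.0 and 630 ± 218 (SD, n = 6 each), which is 1.87 on the log2 scale (standard error 0.22). All 10 listed kinases of the same family were tested and 0 were called. *Sik1*, a kinase induced by cAMP, had the largest difference, from 573 ± 265 normalized counts in Ctrl to 1330 ± 1516 in βCat-GOF mice (log2 fold change 1.21, standard error 0.66, adjusted p = 0.32 from edgeR).

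*Alpk1* encodes an alpha-kinase that senses a bacterial sugar nucleotide in the cytosol and signals through TIFA to NF-κB. On chromosome 3 it (ENSMUSG00000028028) runs from 127670310 to 127780527. Normalized counts were 178, 242 and 304 in Ctrl and 475, 694 and 823 in βCat-GOF mice (lowest, median, highest). Ctrl 3 was here the lowest control, and βCat-GOF 5 the lowest of its group. The means were 244 ± 40.4 and 680 ± 115 (SD, n = 6 each), with a log2 fold change of 1.47 (standard error 0.15). *Tifa*, its adaptor, rose from 128 ± 15.3 to 259 ± 52.5 normalized counts (SD, n = 6 each), with a log2 fold change of 1.01 and a standard error of 0.14 (edgeR, adjusted p = 0.0021), with every βCat-GOF mouse, at 206 or more, above every control, at 152 or less. *Traf6* and *Traf2*, which act after TIFA, had log2 fold changes of -0.02 and 0.24 and were not called, and *Tifab*, which encodes an inhibitor of TIFA, had -0.36. Among the other alpha-kinases, *Alpk2* had 23.9 ± 5.69 normalized counts in Ctrl and 60.2 ± 15.5 in βCat-GOF mice (log2 fold change 1.33, standard error 0.24, adjusted p = 0.0071 from edgeR) and its base mean of 42.1 kept it from being called. *Trpm7* and *Eef2k* were at -0.08 and -0.28 on the log2 scale and were not called.

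*Cdca7l* encodes a nuclear protein that binds Myc and belongs to the same family as *Cdca7*. The gene (ENSMUSG00000021175) is on chromosome 12 from 117804289 to 117878706, and 22.4% of its exon bases overlap other genes, mostly *Dnah11* on the opposite strand. The counting is not stated to use strand, so reads of the shared part cannot be assigned. Normalized counts were 27.3, 58.4 and 70.8 in Ctrl and 223, 271 and 425 in βCat-GOF mice, with βCat-GOF 3 and 5 the highest. The means were 56.1 ± 15.7 and 303 ± 84.7 (SD, n = 6 each), which is 2.41 on the log2 scale (standard error 0.23). *Cdca7*, at 71.7 ± 24.9 and 82.4 ± 29.5, and *Myc*, at 949 ± 170 and 860 ± 190 normalized counts, were not called, nor were *Psip1*, *Maob* and *Hells*.

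*Mybpc1* encodes the slow form of myosin-binding protein C, which sits on the thick filament of skeletal muscle. Its gene (ENSMUSG00000020061) is on chromosome 10 from 88518279 to 88605152. Controls had 13.5 normalized counts at the lowest, 18.2 at the median and 99.8 at the highest, and βCat-GOF mice 358, 1065 and 2484. Ctrl 3 had the 99.8, 5.50 times the median of the other controls, which did not exceed 18.7. Among βCat-GOF mice, numbers 1 and 2 had the most (2484 and 1701) and number 5 the least. The means were 30.7 ± 33.9 and 1214 ± 775 (SD, n = 6 each) and the log2 fold change was 5.24 (standard error 0.60), or 6.17 (standard error 0.53) without Ctrl 3, a fold 1.90 times larger. None of the listed skeletal muscle genes came near the level of *Mybpc1* in βCat-GOF mice. In controls *Mylpf* (19.4 ± 9.07) and *Tnnt1* (17.6 ± 3.10 normalized counts) were close to the control median of *Mybpc1*. The 10 skeletal muscle markers summed to between 1.76 and 3.62 CPM in Ctrl and between 2.44 and 4.43 CPM in βCat-GOF mice, 2 were tested with 0 called, and *Myh4* and *Myh7*, which encode muscle myosin heavy chains, did not exceed 3 counts in any mouse. The 2 tested, *Mylpf* and *Tnnt1*, had base means of 17.9 and 16.1, under the cut-off of 100, so they could not be called. The relatives *Mybpc2* and *Mybphl* also did not exceed 3 counts. *Mybpc3* was too low to be tested, and so was *Mybph*, at 4.74 ± 3.73 and 14.4 ± 15.5.

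Levels can be compared between genes per length of exon, as CPM per kilobase. In Ctrl adrenals *Lynx1* was highest, at 21.9 ± 3.36 CPM per kilobase, followed by *Ism1* at 6.71 ± 1.74 and *Fbln1* at 2.50 ± 0.920. *Mybpc1* was at 0.339 ± 0.373, the last but one, and *Clic6* the last at 0.215 ± 0.299. In βCat-GOF adrenals the order was *Lynx1* (51.1 ± 7.71), *Ism1* (25.6 ± 6.75), *Mybpc1* (13.4 ± 8.81), *Fbln1* (9.12 ± 1.94), *Chil3* (8.26 ± 7.16), *Alpk1* (4.93 ± 0.854), *Cdca7l* (4.62 ± 1.25), *Hunk* (3.74 ± 1.35), *Alpl* (2.79 ± 1.04) and *Clic6* (2.71 ± 0.846; SD, n = 6 throughout). The ranges of neighbours in the βCat-GOF order overlapped in every case except *Lynx1* over *Ism1*. *Mybpc1* thus stood below *Fbln1* in controls and above it by the mean in βCat-GOF mice, with a wide spread between mice.

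The genes beside each member were measured to see whether a member moved alone at its locus. Of the 20 nearest tested genes, 1 on each side of each member, 3 were called higher and 0 lower, against 1.48% of all genes called higher. All 3 lie beside *Lynx1* or *Alpk1*. *Tifa* is the neighbour of *Alpk1*, 9.28 kb away, so the alpha-kinase and its adaptor lie next to each other. *Ly6d*, which encodes another small Ly6 protein and lies 9.01 kb from *Lynx1*, rose from 5032 ± 1382 to 15788 ± 7257 normalized counts (SD, n = 6 each; log2 fold change 1.64, standard error 0.25, adjusted p = 0.0032 from edgeR), a larger log2 fold change than that of *Lynx1* itself. *Them6*, 23.2 kb away on the other side, rose from 144 ± 23.4 to 245 ± 45.3 (log2 fold change 0.76, standard error 0.16, adjusted p = 0.017 from edgeR). In all 3 genes at this locus βCat-GOF 5 was the highest and βCat-GOF 3 the lowest of the βCat-GOF mice. Beside *Ism1*, the low gene *Gm14066*, 0.464 kb away, had 11.6 ± 3.82 and 32.2 ± 19.0 normalized counts and did not pass (adjusted p = 0.051 from edgeR). The neighbours of *Mybpc1*, *Alpl*, *Cdca7l*, *Hunk* and *Fbln1* had log2 fold changes between -0.32 and 0.49, and *Runx1* beside *Clic6* had 0.81 (adjusted p = 0.11 from edgeR). The other neighbours, *Rcan1*, *Gm4540*, *Tasp1* and *Zgrf1*, lay between -0.02 and 0.21, and *Chil6*, low and variable, is the neighbour of *Chil3* at a distance of 220 kb.

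**Figure D2:**
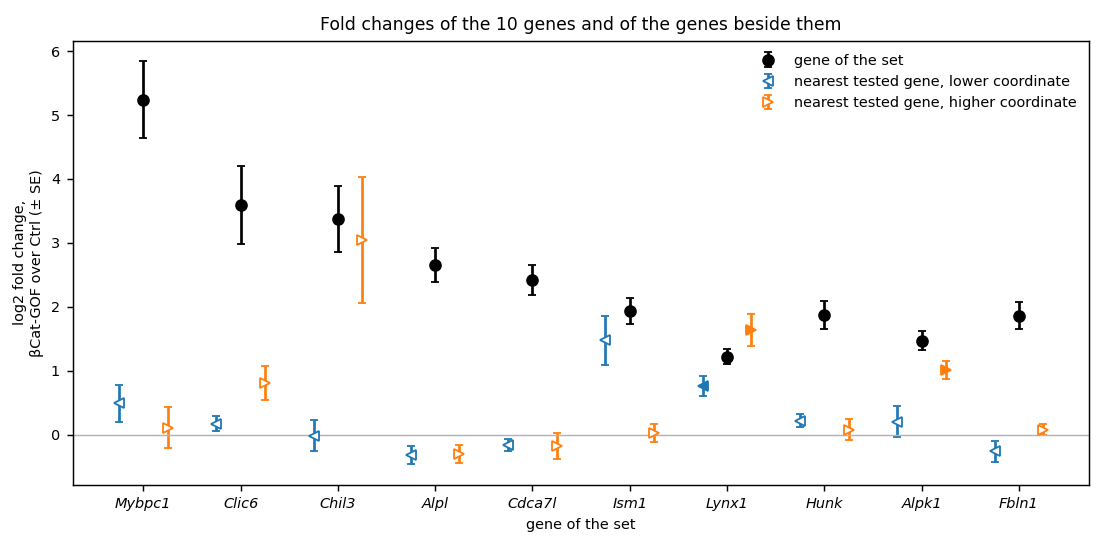
Log2 fold change of βCat-GOF over Ctrl with its standard error for each of the 10 genes (black) and for the nearest tested gene on either side (triangles, filled where called). The filled triangles are *Them6* and *Ly6d* beside *Lynx1* and *Tifa* beside *Alpk1*, at 0.76, 1.64 and 1.01.

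Over families and partners together, 56 genes were tested, 2 were called higher (*Ly6d* and *Tifa*) and 0 lower, with a median log2 fold change of 0.08, against 2.35% of all genes called in either direction. By comparison 5 of the 13 Wnt/β-catenin targets tested were called higher, namely *Nkd1*, *Notum*, *Apcdd1*, *Tcf7* and *Rnf43*, with a median of 0.67. Of the 13, 10 had a log2 fold change above 0, and *Lgr5* had the lowest, -0.87. *Axin2* (0.70) and *Lef1* (0.90), which the paper lists as upregulated by its DESeq2 fit, were not called here (adjusted p = 0.074 and 0.085 from edgeR). Of 12 zG markers 4 were called higher (*Agtr1a*, *Agtr1b*, *Dab2* and *Vsnl1*), with a median of 0.77, and of 8 zF markers 2 (*Akr1b7* and *Mrap*), with a median of 0.30. A log2 fold change above 0 was found for 10 of the 12 zG markers, but *Cyp11b2* had -0.18 and *Kcnj5* -0.61. It was found for 6 of the 8 zF markers, with *Cyp11b1* at -0.18 and *Hsd3b1* at -0.03. The 6 adipocyte markers summed to between 127 and 459 CPM in Ctrl and between 142 and 386 CPM in βCat-GOF mice with 0 called, and 0 of the 2 X-zone markers were called.

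The variation inside the βCat-GOF group was not used to choose the genes, and it was set against the 2 reference genes. *Nkd1* had 3785, 3571, 1530, 2058, 2624 and 1328 normalized counts in βCat-GOF mice 1 to 6, all above the highest control at 962. *Akr1b7* had 26231, 56370, 141489, 176031, 145717 and 206331 in the same mice, against 32372 to 52148 in controls. βCat-GOF 1 and 2 thus had the most *Nkd1* and the least *Akr1b7*, and βCat-GOF 1 lay below every control for *Akr1b7*, whose groups overlapped. Between the reference genes Pearson's r of log2 CPM over the 6 mice was -0.85 and Spearman's rho -0.83 (exact permutation tests over 720 pairings, two-sided, p = 0.031 and 0.058), and r was -0.74 without the 2 mice farthest from the median of *Nkd1*. The relations of a gene with both of them are therefore not independent.

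With *Nkd1*, 7 genes had a positive r and 3 a negative one. *Fbln1* had the highest (Pearson r = 0.90, Spearman rho = 0.94, exact permutation p = 0.015 and 0.017, two-sided, n = 6 mice), and r was 0.88 without the 2 farthest mice, βCat-GOF 1 and 6. *Hunk*, *Lynx1* and *Ism1* had r of 0.82, 0.79 and 0.77, with rho of 0.77, 0.71 and 0.77, and kept 0.60, 0.93 and 0.73 without those mice. The exact permutation p of r was 0.064 for *Hunk*, 0.074 for *Lynx1* and 0.081 for *Ism1*. *Clic6* and *Mybpc1* had 0.58 and 0.52, and *Alpk1* 0.19. *Chil3* ran the other way (r = -0.75, rho = -0.83, exact permutation p = 0.074 and 0.058), as did *Alpl* (r = -0.51) and *Cdca7l* (r = -0.23). After Benjamini-Hochberg adjustment over the 20 relations with *Nkd1* and *Akr1b7*, 0 of the 10 genes passed, the lowest adjusted p of the exact permutation tests being 0.15 for r and 0.33 for rho, both for *Fbln1*. At an unadjusted p under 0.05 the count was 1 for either coefficient. With 720 pairings the smallest possible p of r is 0.0014, and for rho a perfect order of 1 gene alone would not pass. The count of 0 passing, here and below, thus does not show that no gene follows a reference.

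**Figure D3:**
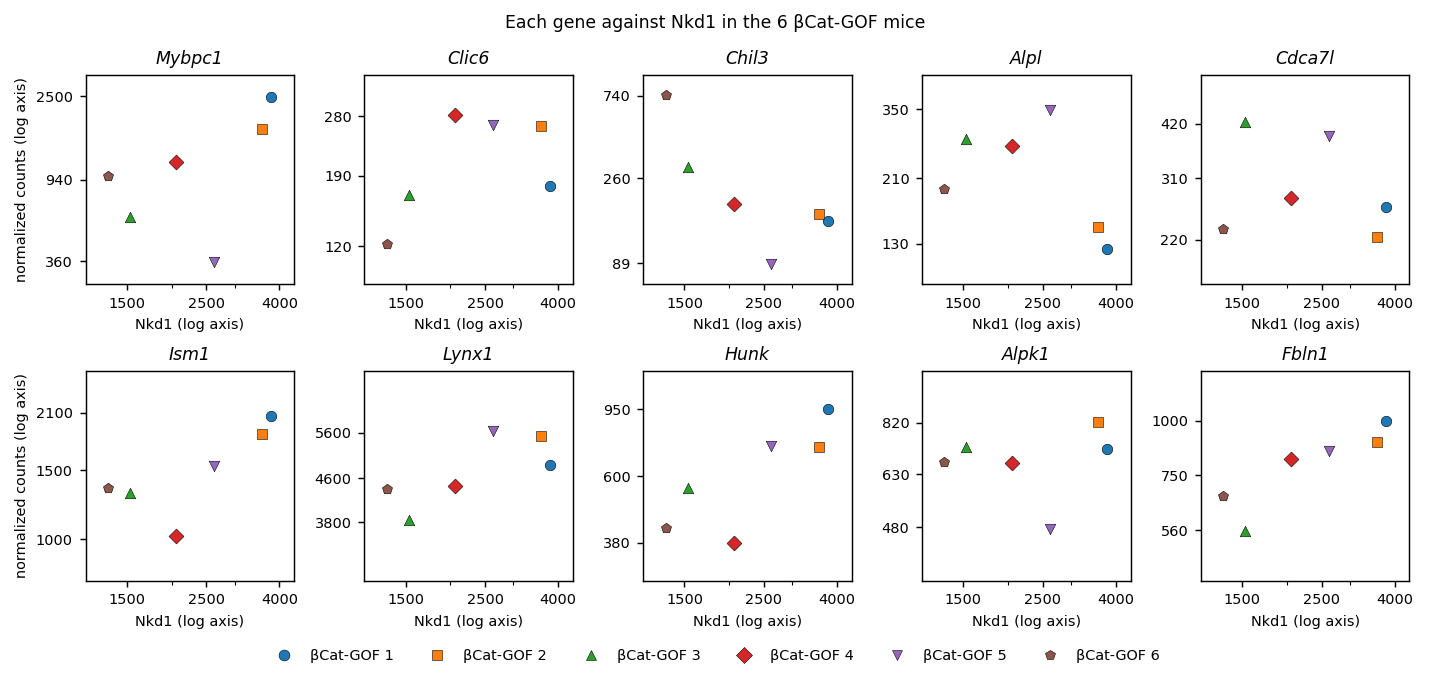
Normalized counts of each gene against those of *Nkd1* in the 6 βCat-GOF mice, both on log axes, 1 symbol per mouse. βCat-GOF 1 and 2, which have the most *Nkd1*, are the highest for *Fbln1* (r = 0.90) and the lowest for *Alpl* (r = -0.51), and *Chil3* (r = -0.75) is highest in βCat-GOF 6, which has the least *Nkd1*.

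With *Akr1b7*, 7 genes had a negative r and 3 a positive one. *Ism1* (r = -0.89, rho = -0.71, exact permutation p = 0.014 and 0.14) and *Hunk* (r = -0.85, rho = -0.77, p = 0.031 and 0.10) ran against it, followed by *Mybpc1* (-0.72) and *Fbln1* (-0.69). *Alpk1* (-0.48), *Lynx1* (-0.45) and *Clic6* (-0.12) had weaker negative values. *Alpl* had the highest positive r (0.78, rho = 0.49, exact permutation p = 0.069 and 0.36), then *Chil3* (0.40) and *Cdca7l* (0.27). None passed the adjustment over 20 relations (lowest adjusted p of the exact permutation tests 0.15 for r and 0.34 for rho). The 2 mice farthest from the median of *Akr1b7* were βCat-GOF 1 and 2, whose labels share a stem. In the other 4 mice the sign of r was kept for 5 of the 10 genes, with -0.78 for *Hunk*, -0.37 for *Ism1*, -0.40 for *Clic6*, -0.09 for *Lynx1* and 0.67 for *Chil3*. The relations of the other 5 rested on βCat-GOF 1 and 2, since their sign turned without them. *Alpl* changed from 0.78 to -0.84, *Mybpc1* from -0.72 to 0.77, *Cdca7l* from 0.27 to -0.999, *Alpk1* from -0.48 to 0.32 and *Fbln1* from -0.69 to 0.15. The sign with *Nkd1* was kept for all 10 when its 2 farthest mice, βCat-GOF 1 and 6, were left out. βCat-GOF 2 stayed in that check, so it is not like the check with *Akr1b7*. The relations with *Nkd1* without both βCat-GOF 1 and 2 were not measured.

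**Figure D4:**
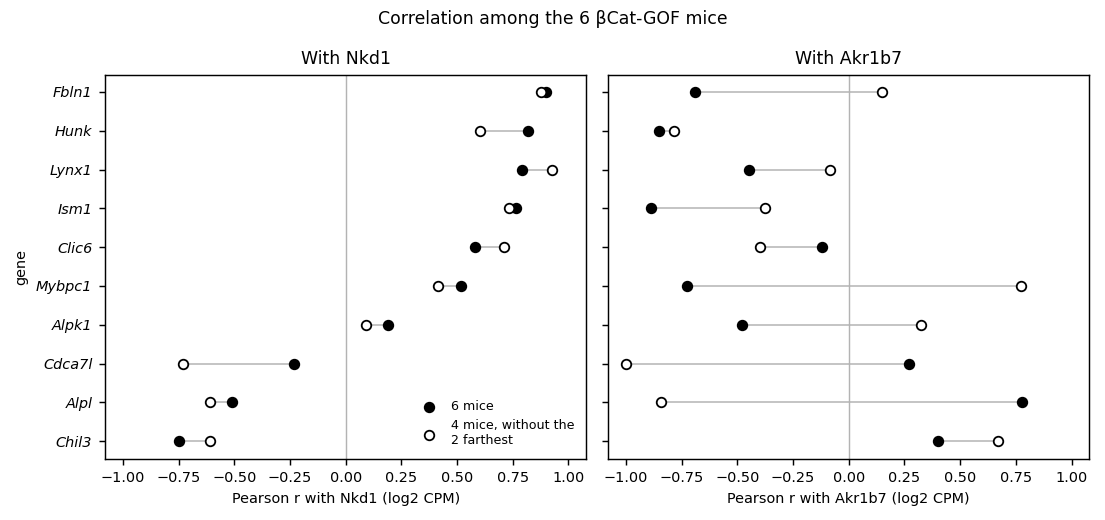
Pearson's r of log2 CPM of each gene with *Nkd1* (left) and *Akr1b7* (right) over the 6 βCat-GOF mice (filled) and over the 4 mice left when the 2 farthest from the median of the reference gene are taken out (open). With *Nkd1* every pair of points lies on the same side of 0, and with *Akr1b7* 5 of the 10 pairs cross it. The mice taken out differ, βCat-GOF 1 and 6 for *Nkd1* and βCat-GOF 1 and 2 for *Akr1b7*.

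The members did not rise and fall together among βCat-GOF mice. Of the 45 pairs 23 had a positive r, from -0.92 between *Mybpc1* and *Alpl* to 0.93 between *Ism1* and *Hunk*. Given as a description, *Mybpc1* and *Alpl* had opposite orders at the extremes, with βCat-GOF 1 first in *Mybpc1* and last in *Alpl* and βCat-GOF 5 last in *Mybpc1* and first in *Alpl*.

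In the 6 controls the same relations were measured. *Fbln1*, *Lynx1* and *Ism1* had the highest rank correlations with *Nkd1* (rho = 0.89, 0.83 and 0.83), and their Pearson's r was 0.93, 0.93 and 0.65 (exact permutation p = 0.015, 0.018 and 0.16, n = 6, two-sided). *Hunk*, at r = 0.82 with *Nkd1* in βCat-GOF mice, had r = 0.11 and rho = 0.03 in controls, and *Alpk1* had r = -0.72 and rho = -0.37. *Mybpc1*, *Clic6* and *Cdca7l* had r of 0.88, 0.70 and 0.66 but rho of 0.37, 0.49 and 0.26. *Chil3* and *Alpl* had r of -0.17 and -0.25. The difference in r between the genotypes was not tested. With *Akr1b7* 5 genes had a positive and 5 a negative r, the farthest from 0 being *Hunk* (r = -0.77, rho = -0.77, exact permutation p = 0.079 and 0.10). In the controls 0 of the 20 relations passed the adjustment, with a lowest adjusted exact permutation p of 0.18. Ctrl 3 had the most *Nkd1* of the controls, 962 against 735 or fewer in the others. Without Ctrl 3 and Ctrl 4, r with *Nkd1* was 0.37 for *Fbln1* and -0.13 for *Lynx1*, so these control relations rested on those mice, while *Ism1* had 0.78. *Mybpc1*, *Clic6* and *Cdca7l* had 0.11, 0.52 and -0.585 without those mice. The sign with *Nkd1* was kept for 5 of the 10 genes without those mice.

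The genes most like each member were sought over all 12 mice, with log2 CPM centred within each genotype so that the difference between the groups does not enter, among 11386 genes with a base mean above 100. For *Ism1* they were *Sulf1*, an enzyme that trims heparan sulfate, *Rgs4*, a regulator of G protein signaling, and *Agtr1b*, an angiotensin II receptor of the zG (r = 0.94, 0.93 and 0.93). For *Mybpc1* they were *Snhg18*, *Rbm24*, which encodes an RNA-binding protein of muscle, and *Hpcal4* (0.90, 0.90 and 0.87). For *Fbln1* they were *Tmem255a*, *Ptn*, a secreted growth factor, and *Sfrp1*, a secreted Wnt antagonist (0.91, 0.90 and 0.89). *Hunk* was most like *Cep135*, *Afap1* and *Skp2* (0.97, 0.95 and 0.94), *Lynx1* like *Tspan11*, *Klf2* and *Filip1l* (0.94, 0.89 and 0.88), and *Alpk1* like *Gm26908*, *Rab10os* and *Nckap5* (0.91, 0.89 and 0.88). *Clic6* was most like *Gfra2*, *Tpgs2* and *Atp6v1b2* (0.89, 0.86 and 0.85), *Chil3* like *D5Ertd579e*, *Ttc37* and *E2f3* (0.89, 0.85 and 0.85), *Alpl* like *Gm12248*, *2010109I03Rik* and *Acaa2* (0.89, 0.87 and 0.87), and *Cdca7l* like *Focad*, *Ddx47* and *Lsm2* (0.84, 0.83 and 0.83). These are the highest of many values and are given without a test. Of the 30 genes named here, *Sulf1*, *Agtr1b*, *Rbm24* and *2010109I03Rik* were called higher in βCat-GOF adrenals.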

How the data were processed

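Whole-adrenal RNA of 12 mice was measured, and groups were taken from the genotype in the labels. Per the study's methods, reads were trimmed with cutadapt and aligned by STAR to mm10, and featureCounts 1.4.4 assigned those with a unique position to genes. The authors deposited these counts without normalization, together with a signal table of counts divided by 1 factor per library (DESeq2 1.6.3 per the labels), used here for gene symbols. The annotation release and strand setting are not given in the sources used here. Positions, neighbours and lengths came from GENCODE M21 (GRCm38).

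The counts were tested with edgeR 4.0.16 (TMM, filterByExpr, quasi-likelihood, two-sided), run under R 4.3.3, and p-values were adjusted by Benjamini-Hochberg over all genes tested. The fits were tested on simulated data, with genes called at an adjusted p under 0.05 alone. Of 200 changed genes edgeR recovered 159, with 8 false calls, and DESeq2 171, with 33 false calls. Log2 CPM used a prior count of 2. Transcript copies were searched with blastn 2.17.0 and motifs with Python 3.11.15.

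The members and gene lists were chosen with earlier results of these data known. Named genes are the members, *Nkd1*, *Akr1b7*, for each list the called genes and at most 4 others with the largest changes, the flanking genes, and the 3 genes most like each member. Further list members, such as *Chil1*, *Clic1* and kidney or neutrophil markers, are named outside this rule, with their values known. The p-values measure the spread between these libraries, which may be technical in part. At these depths 3 counts correspond to 0.114 to 0.237 CPM. Alternatives were DESeq2 1.42.0, other size factors, no filter, a prior count of 0.5, linear counts, list means as reference, and leaving out mice.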

Additional observations from a re-analysis of the deposited data

Results flagged for a closer look

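In each group of 6 mice the highest and lowest values of each gene were set against the rest, and a mouse was picked out where its gap to the next, as a share of the range of the group, exceeded Dixon's critical value. Of the 20 groups 5 had such a mouse. Ctrl 3 was picked out in 4 of them, with 99.8 normalized counts of *Mybpc1*, 64.0 of *Clic6*, 2677 of *Lynx1* and 373 of *Fbln1*. The other was βCat-GOF 6, with 742 normalized counts of *Chil3*. A rate of about 1 in 20 goes with this critical value for independent groups of normally distributed values. The groups here hold normalized counts, not their logs, of 10 genes in the same 12 mice. No excess over that rate is therefore read from the 5 groups.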

How the results depend on the processing

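Direction held for all 10 genes under every alternative run. The genes were picked for this difference and their groups did not overlap, so nothing is read from that. The refit without βCat-GOF 5 was entered under more than 1 setting, so its values for the 10 genes are counted again in the next total. Of 170 refitted log2 fold changes, 164 stayed within 1 standard error of the reported value. The other 6 were *Mybpc1*, *Clic6* and *Fbln1* without Ctrl 3 (6.17, 4.88 and 2.10), *Mybpc1* and *Clic6* with 1 mouse left out of each of the 3 pairs whose labels share a stem, the ones left out being Ctrl 1, Ctrl 3 and βCat-GOF 1 (5.86 and 4.63), and *Chil3* without βCat-GOF 6 (2.77). DESeq2 without shrinkage called 363 genes higher and 283 lower, against 222 and 130 with edgeR. With each mouse left out in turn these counts ran from 146 to 340 higher and from 61 to 223 lower. They were 146 and 61 without Ctrl 6 and 340 and 223 without βCat-GOF 1, and 80 and 63 genes were called lower without βCat-GOF 5, the mouse with another label number, and βCat-GOF 6. With 1 mouse of each label pair left out 228 were called lower. The causes were not tested. DESeq2 called 4 of the families and partners in place of 2, adding *Adamts1* (higher, adjusted p = 0.027) and *Chrna3* (lower, adjusted p = 0.047). Without Ctrl 3, an alternative added after seeing the data, the calls among families, partners and neighbours were again *Ly6d*, *Tifa* and *Them6*. No relation with *Nkd1* or *Akr1b7* passed under other size factors, linear counts, a prior count of 0.5 or list means as reference, with the same signs among βCat-GOF mice throughout. No paired analysis was possible because the labels give no replicate numbers shared by the groups.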

Other observations

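Ctrl 3 was the highest control for 5 of the 10 genes and was also the highest control for 104 of the 222 genes called higher in βCat-GOF adrenals (46.8%). The other 5 controls were highest for between 15 and 37 of them. Over all 11431 genes with a base mean above 100, Ctrl 3 was the highest control for 22.4%, close to the 22.5% of Ctrl 1. For the members, Ctrl 3 lay at 57.5% of the median of βCat-GOF mice for *Lynx1*, 44.7% for *Fbln1*, 37.7% for *Ism1*, 29.0% for *Clic6* and 9.37% for *Mybpc1*, so the share differed from gene to gene. It was not raised for *Chil3*, *Alpl*, *Hunk* or *Alpk1*, at 0.686, 0.806, 0.888 and 0.734 times the median of the other controls, and stood at 1.23 times for *Cdca7l*. The cause was not tested.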
